A study of Mus musculus with 30 samples.

Results

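The genes described here are 9 genes of RNA sensing and of the interferon response: *Ddx58*, *Ifih1*, *Tlr3*, *Mavs*, *Irf7*, *Eif2ak2*, *Isg15*, *Ifit1* and *Oas1a*. They were taken by name, as a list of double-stranded RNA sensors and interferon genes, from 55487 genes counted in each of 23 single mouse embryos, and all 9 were found by symbol. The embryos came from matings between *Dis3* het mice, in which the null allele lacks exons 3 to 5 after CRISPR-Cas9 cutting and end joining. DIS3 is a ribonuclease of the RNA exosome, so the question these genes address is whether RNA that is not degraded in null embryos comes with an innate immune response. The E2.5 embryos were 6 wild-type, 2 het and 4 null, and those of E2.75 were 3 wild-type, 5 het and 3 null. All had het mothers, so null embryos may have held maternal *Dis3* product, and all were recovered after hormonal stimulation of the females. The methods describe 2 knockout lines with differently repaired junctions, and the labels do not say which line an embryo came from. A second part of the series is ChIP-seq of POU6F1-mCherry in mouse embryonic stem cells 48 h after transfection, a model with an overexpressed and tagged protein.

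Cells detect viral or misprocessed RNA with a small set of receptors. RIG-I (*Ddx58*) binds double-stranded RNA with a 5′ triphosphate, MDA5 (*Ifih1*) binds long double-stranded RNA, and both signal through MAVS on the mitochondrial surface to the kinase TBK1 and the transcription factors IRF3 and IRF7. TLR3 reads double-stranded RNA in endosomes. PKR (*Eif2ak2*) is a kinase that double-stranded RNA switches on and that then phosphorylates eIF2alpha and lowers translation. The interferons made in response act on the receptor subunits IFNAR1 and IFNAR2, and through JAK1, TYK2, STAT2 and IRF9 they induce *Isg15* (a ubiquitin-like modifier), *Ifit1* (a protein that binds foreign 5′ ends), *Oas1a* (which makes an antiviral second messenger) and the sensors themselves. Cells of early embryos and embryonic stem cells are known for a weak interferon response. The cytoplasmic exosome with its helicase partner SKIV2L is known to limit RNA sensing in other cells.

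The promoters show which of the 9 genes carry the letters through which the interferon pathway acts. The interferon-stimulated response element was searched as GAAANNGAAA on both strands, from 250 bases before to 50 bases after each RefSeq start site (GRCm38.p6). It was present in 1131 of 32851 promoters (3.44%) and in those of 6 of the 9 genes. *Isg15* had 3 matches that overlap each other, *Oas1a* had 2 overlapping matches, *Ifit1* had 2 separate ones, and *Ddx58*, *Ifih1* and *Eif2ak2* had 1 each, all 3 just downstream of the start. No match lay in the window of *Mavs*, *Tlr3* or *Irf7*. The stretches of 30 bases around the matches follow, 5′ to 3′ on the strand of the gene, with the matching letters in capitals. They cover chr4:40239804-40239833 (minus strand) for *Ddx58*, chr2:62646206-62646235 (minus) for *Ifih1*, chr17:78882535-78882564 (minus) for *Eif2ak2*, chr4:156200871-156200900 (minus) for *Isg15*, chr19:34640784-34640813 (plus) for *Ifit1* and chr5:120907523-120907552 (minus) for *Oas1a*.
Ddx58: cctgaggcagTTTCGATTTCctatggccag
Ifih1: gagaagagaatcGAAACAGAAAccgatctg
Eif2ak2: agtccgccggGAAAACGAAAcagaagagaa
Isg15: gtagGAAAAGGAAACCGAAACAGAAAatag
Ifit1: gTTTCACTTTCcagtctcagTTTCAGTTTC
Oas1a: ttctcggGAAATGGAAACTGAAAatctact

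The libraries held 1690192 to 14015980 counts on genes, with a median of 8030848, and the null libraries were the shallowest (median 4808323, against 8895879 in het and 8644043 in wild-type). A count of 0 allows up to 3 counts, that is 0.300 to 1.77 CPM in 1 null library and 0.0844 CPM over all 7 null libraries together. Such limits and the counts of 0 cover counting error only, since the reads carry no molecular identifiers. Reads outside exons took 32.3% to 43.9% of the reads in null embryos, against 21.2% to 27.9% in het and 21% to 33.4% in wild-type embryos, and the part of this in the values below was not tested. *Dis3* itself ran from 0 to 21.5 CPM in null, 30.4 to 59.2 CPM in het and 18.1 to 147 CPM in wild-type embryos. CPM (counts divided by library size in units of 1e6) are given after TMM normalization, except for the limits that a count of 0 allows and for pooled counts, which are per total count on genes. One library labelled wild-type, replicate 6 of E2.5, had 18.1 CPM of *Dis3*, within the range of the null embryos, and values of *Ddx58*, *Mavs*, *Eif2ak2*, *Jak1* and *Ifnar1* against wild-type are also given without it. As each library is 1 embryo, fewer cells of a type and less RNA per cell cannot be told apart.

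The 9 genes were low or absent, and null embryos, with the shallowest libraries, had counts for fewer of them. *Mavs* was the only one of the 9 with a count in every embryo. Over the 9 wild-type embryos 7 of the 9 genes had at least 1 count in some embryo, over the 7 het embryos 6, and over the 7 null embryos 4 (*Mavs*, *Ddx58*, *Eif2ak2* and *Ifih1*). A single embryo had counts for a median of 3 of the genes in wild-type (from 2 to 6), 3 in het (2 to 5) and 2 in null (2 to 3). After thinning each library to 1690192 counts, the expected share of gene and embryo pairs with a count was 29.1% in wild-type, 30.7% in het and 22.0% in null, where it had been 34.6%, 34.9% and 23.8% at full depth. That share was not tested. Of all 55487 genes, a single embryo at full depth had counts for 15002 to 18094 in null, 15876 to 19460 in het and 15624 to 18008 in wild-type. These ranges overlapped.

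**Figure D1:**
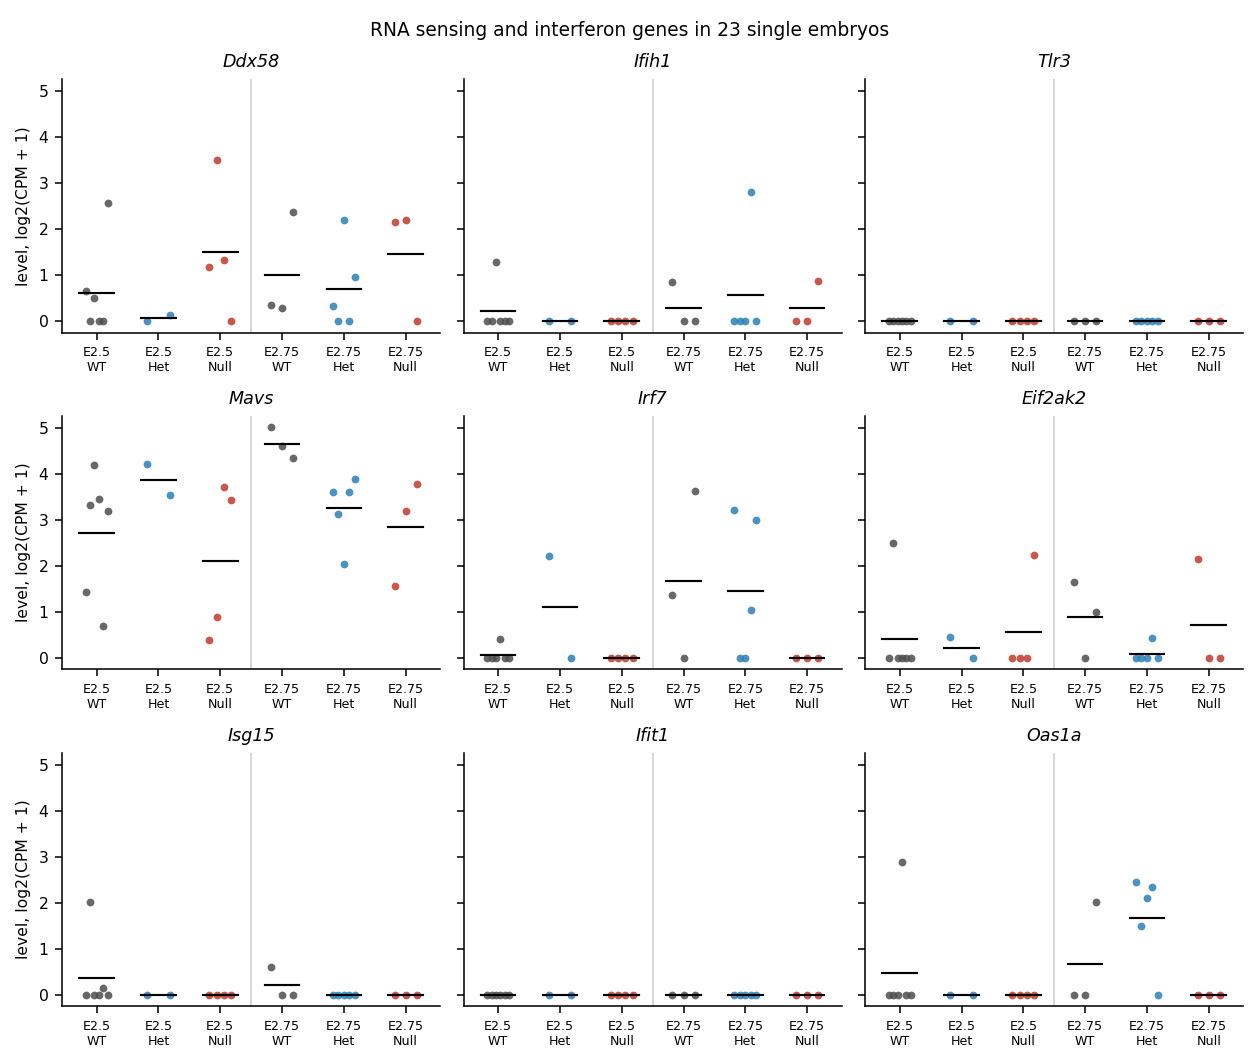
Level of each of the 9 genes in each embryo, as log2(CPM + 1) on a shared axis, by stage and genotype, with 1 point per embryo and a bar at the group mean. Only *Mavs* has points above 0 in every embryo, *Tlr3* and *Ifit1* lie at 0 throughout, and *Irf7*, *Isg15* and *Oas1a* lie at 0 in the 7 null embryos.

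Of the 2 cytoplasmic sensors, *Ddx58* (ENSMUSG00000040296, chr4:40203773-40239828) had counts in 5 of 7 null, 4 of 7 het and 6 of 9 wild-type embryos. At E2.5 the null embryos had 1.25, 10.4, 1.53 and 0 CPM, the het embryos 0 and 0.0928 CPM, and the wild-type embryos from 0 to 4.95 CPM with a median of 0.206. At E2.75 the null embryos had 3.45, 3.59 and 0 CPM, the het embryos 0.259, 0, 3.57, 0 and 0.950 CPM, and the wild-type embryos 0.266, 0.223 and 4.16 CPM. The genotypes overlapped at both stages, and the highest value, in E2.5 null replicate 2, rested on 61 counts. The mean was 2.88 ± 3.60 CPM in null (SD, n = 7), 0.696 ± 1.31 in het (n = 7) and 1.17 ± 1.94 in wild-type embryos (n = 9). The log2 fold change was 1.99 (SE 1.40) for null against het and 1.27 (SE 1.28) for null against wild-type, with adjusted p-values of 0.508 and 0.746 from edgeR's quasi-likelihood test. Without E2.5 null replicate 2 these were 1.13 and 0.41, and without E2.75 het replicate 3 the first was 3.55. At E2.5 null against wild-type the log2 fold change was 1.67 (adjusted p = 0.748, edgeR), and without wild-type replicate 6, which had 4.95 CPM, it was 3.94 (adjusted p = 0.319, edgeR). Over both stages *Ddx58* did not pass the filter without that library.

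*Ifih1* (ENSMUSG00000026896, chr2:62595798-62646255), the sensor of long double-stranded RNA, had counts in 4 embryos only. These were 1 null embryo at E2.75 (0.831 CPM), 1 het embryo at E2.75 (6.03 CPM) and 2 wild-type embryos (1.44 CPM at E2.5 and 0.799 CPM at E2.75). All 4 E2.5 null embryos were at 0. *Tlr3* (ENSMUSG00000031639, chr8:45395665-45411080), the endosomal sensor, had no count in any of the 23 embryos, which allows 0.0169 CPM over all libraries.

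*Mavs* (ENSMUSG00000037523, chr2:131234063-131248025), the adaptor of both cytoplasmic sensors, was the most abundant of the 9 genes. At E2.75 the wild-type embryos had 31.4, 23.5 and 19.6 CPM, the het embryos 11.3, 7.84, 3.15, 11.2 and 13.8 CPM, and the null embryos 1.97, 8.21 and 12.9 CPM. All 3 wild-type embryos lay above every het and null embryo of that stage. At E2.5 the null embryos had 0.312, 0.850, 12.2 and 9.87 CPM, the het embryos 17.6 and 10.7 CPM, and the wild-type embryos from 0.617 to 17.3 CPM with a median of 8.58. Null and wild-type overlapped there, with a log2 fold change of -0.49 that was -0.47 without wild-type replicate 6, while the 2 null embryos with under 1 CPM of *Mavs* were below both het embryos and were matched by 1 wild-type embryo. Over both stages the log2 fold change was -0.71 (SE 0.73, adjusted p = 0.682, edgeR) for null against het and -1.02 (SE 0.70, adjusted p = 0.558, edgeR) for null against wild-type, and -1.09 without wild-type replicate 6. At E2.75 *Mavs* was at -1.72 (SE 0.74) in null against wild-type, with an unadjusted p of 0.0340 and an adjusted p of 0.225 by edgeR, while DESeq2 gave -1.66 with an adjusted p of 0.0887, which passes the threshold of 0.1. For het against wild-type over both stages it was -0.32 (adjusted p = 0.944, edgeR).

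*Irf7* (ENSMUSG00000025498, chr7:141262706-141266481), the transcription factor that amplifies interferon production, had no count in any null embryo. At E2.75 the het embryos had 8.29, 0, 0, 1.06 and 7.07 CPM and the wild-type embryos 1.60, 0 and 11.5 CPM. At E2.5 1 of 2 het embryos had 3.69 CPM and 1 of 6 wild-type embryos had 0.334 CPM. Its level was therefore uneven among het and wild-type embryos too, where 9 of 16 had none. Pooled over embryos there were 231 counts in het (3.76 CPM) and 122 in wild-type (1.52 CPM), so that the nulls were at least 44.6-fold lower than het and at least 18.0-fold lower than wild-type against a floor of 3 counts over the null group. One embryo, E2.75 wild-type replicate 3, held 113 of the wild-type counts, and without it the bound against wild-type was 1.49-fold. Without E2.75 het replicate 1, which held 128 counts, the bound against het was 25.8-fold. These bounds pool both stages, and the stages are mixed in other shares in each genotype. At E2.75 alone the pooled level was 4.825 CPM in het and 5.96 in wild-type, beside a floor of 0.2815 in null. At E2.5 it was 1.52 CPM in het and 0.0497 in wild-type, beside a floor of 0.120, so wild-type gave no bound there. The adjusted p-values at E2.75 were 0.248 against het and 0.216 against wild-type (edgeR), but *Irf7* entered these tests through the control embryos alone, which fixed the direction. *Irf7* lies on the minus strand and overlaps *Phrf1* on the plus strand, and the counting ignored strand. A read lying wholly in exons of both was set aside as ambiguous, so reads of *Irf7* could be lost there. The size of this was not tested. *Phrf1* was at 44.4 to 260 CPM in null, 98.6 to 208 in het and 62.1 to 252 in wild-type embryos.

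*Eif2ak2* (ENSMUSG00000024079, chr17:78852564-78882573), which encodes PKR, had counts in 2 of 7 null, 2 of 7 het and 3 of 9 wild-type embryos. The null embryos with counts had 3.76 CPM at E2.5 and 3.45 CPM at E2.75. The wild-type embryos with counts had 4.65 CPM (E2.5), 2.13 and 1.01 CPM (both E2.75), and the het embryos with counts had 0.369 CPM at E2.5 and 0.355 CPM at E2.75. Null and wild-type embryos covered the same range. At E2.5, the one stage at which it was tested alone, the log2 fold change was 0.22 (SE 2.22) for null against wild-type and 2.14 (SE 3.31) for null against het, with adjusted p-values of 0.983 and 0.900 (edgeR). Without wild-type replicate 6 the first was -0.04, of the opposite sign.

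The interferon-induced effectors had no counts in null embryos. *Isg15* (ENSMUSG00000035692, chr4:156199424-156200818) had 24 counts in all, in 3 wild-type embryos at 3.05, 0.103 and 0.533 CPM, and none in the 14 het and null embryos. *Ifit1* (ENSMUSG00000034459, chr19:34640871-34650009) had no count in any embryo. *Oas1a* (ENSMUSG00000052776, chr5:120896256-120907521) was at 0 in all 7 null embryos, and had 4.47, 1.81, 3.32, 4.08 and 0 CPM in the 5 E2.75 het embryos. It was otherwise seen in 1 of 3 wild-type embryos at E2.75 (3.04 CPM) and 1 of 6 at E2.5 (6.45 CPM). Pooled, *Oas1a* was at least 26.7-fold lower in null than in het embryos and at least 13-fold lower than in wild-type. Without E2.75 het replicate 1, with 69 of the 138 het counts, the first bound was 17.3-fold, and without E2.5 wild-type replicate 4, with 58 of the 88 wild-type counts, the second was 5.01-fold. The adjusted p for null against het at E2.75 was 0.227 (edgeR), and here too the control embryos alone brought the gene into the test and fixed its direction. *Oas1a* belongs to a cluster of closely similar genes, among which the counting could have split or dropped reads, so its level is uncertain.

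Of the 9 genes, 2 had enough counts to be tested over both stages (*Mavs* and *Ddx58*), 3 at E2.5, 4 at E2.75 and 6 in the fit of all 6 groups. The others were not tested because of their low counts. The threshold for a call was an adjusted p below 0.1 together with a log2 change larger than 1 in size. None of those tested was called by edgeR in any of the 9 comparisons. The share of all tested genes called was 5.73% for null against het, 5.25% for null against wild-type and 0% for het against wild-type. At E2.5 it was 0.0126% against het and 1.82% against wild-type, and at E2.75 it was 4.82% and 4.54% for null embryos in the same order. It was 0% for the interaction of stage and genotype and 7.38% for E2.75 against E2.5 wild-type. With so few genes tested, 0 called cannot be told apart from these shares. At an unadjusted p under 0.05 there were 2 genes in null against het at E2.75 (*Irf7* and *Oas1a*), 2 in null against wild-type at E2.75 (*Irf7* and *Mavs*), 1 in E2.75 against E2.5 wild-type (*Irf7*) and 0 in each of the other 6 comparisons.

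Other ways of testing called single members. For *Irf7* and *Oas1a*, at 0 in all null embryos, a call could only be a lower level in nulls, so its direction is no evidence. Leaving out either E2.5 het embryo also brought *Oas1a* into the test of null against het, where it was called lower (adjusted p = 0.0939 and 0.0881, edgeR, with 5.78% and 6.33% of genes called). DESeq2 called 0 of the 5 members it could test in null against het and in null against wild-type, where it called 9.68% and 9.03% of genes, and 1 of 5, *Mavs*, in null against wild-type at E2.75, where it called 12.9%. Without the filter on low counts, edgeR called *Irf7* and *Oas1a* lower in null against het (adjusted p = 0.0834 and 0.0940, with 5.38% of genes called) and in null against wild-type (0.0741 and 0.0904, with 10.1% called). That fit also called *Irf7* at E2.75, lower in null against het (4.47% called) and against wild-type (3.8% called), and higher at E2.75 than at E2.5 in wild-type embryos (adjusted p = 0.0368, edgeR, with 6.26% called). With libraries scaled by the ERCC spike-in RNA, *Oas1a* was called lower in null against het at E2.75 (adjusted p = 0.0960, edgeR, with 17.3% called) and *Irf7* higher at E2.75 in wild-type embryos (0.0466, edgeR, with 17.5% called). These 2 genes have counts in few embryos, as listed above, and of the members with counts in null embryos none was called higher there under any of the alternatives.

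Per kilobase of exon, which allows genes to be compared, the order was led by *Mavs* in each genotype, at 4.03 ± 3.06 CPM per kb in wild-type (SD, n = 9), 3.22 ± 1.35 in het (n = 7) and 1.98 ± 1.63 in null embryos (n = 7). In wild-type it was followed by *Oas1a* (0.560 ± 1.2), *Isg15* (0.541 ± 1.33), *Irf7* (0.394 ± 1.00), *Eif2ak2* (0.169 ± 0.312), *Ddx58* (0.167 ± 0.274) and *Ifih1* (0.0305 ± 0.0637). All neighbours below *Mavs* in this order lay within their spread. In het embryos *Oas1a* (1.04 ± 1.07) and *Irf7* (0.761 ± 0.940) came next. In null embryos the order after *Mavs* was *Ddx58* (0.409 ± 0.511), *Eif2ak2* (0.202 ± 0.345) and *Ifih1* (0.0145 ± 0.0385), with the other 5 at 0. Across the 23 embryos the genes whose log2 CPM ranked most like *Mavs* were *Miga2*, *Rps6ka5* and *Tpp2* (Spearman's rho of 0.758, 0.739 and 0.737), and those most like *Ddx58* were *Bet1l*, *Wdr33* and *Pramef12* (0.707, 0.70 and 0.69), as a description over embryos that share depth and stage.

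Around the 9 genes, 133 further genes of the same pathway were examined in 8 lists, of which 102 had a count in some embryo and 59 were tested over both stages. In null against het and in null against wild-type 0 of the 59 were called higher and 1, *Ifnar1*, lower. That is a share of 1.69% beside the 5.73% and 5.25% of all genes. The median log2 fold change of the 59 was -0.34 and -0.17, where that of all genes was 0.02 and -0.02. The counts against wild-type were the same without wild-type replicate 6. At E2.5 0 of 63 tested genes were called against either control, beside 0.0126% of all genes against het and 1.82% against wild-type. At E2.75 0 of 59 were called against het (4.82% of all genes). Against wild-type 2 were called (3.39%), beside 4.54% of all genes in both directions. Both of the 2 were called higher, as were 316 of all 14442 tested genes. The median log2 fold change of the 59 in that comparison was -0.39, where that of all genes was -0.009.

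**Figure D2:**
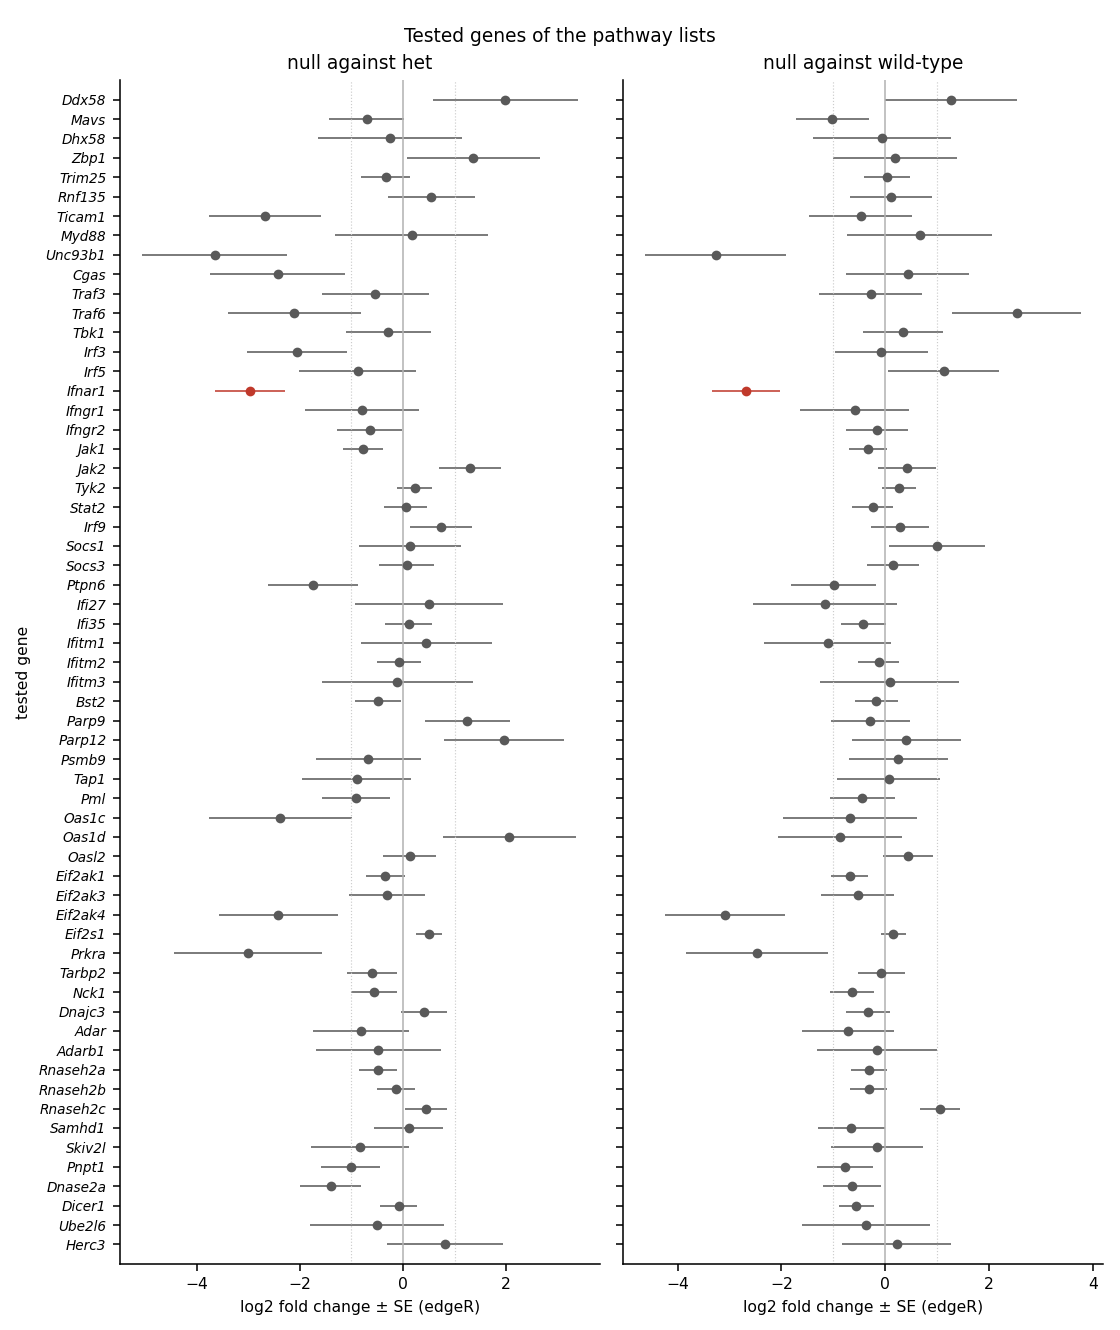
The log2 fold change of *Ddx58*, *Mavs* and 58 of the 59 pathway genes tested over both stages, for null against het and null against wild-type, with edgeR's standard error as the bar and dotted lines at a log2 change of 1 in each direction. *Ifnar1*, in red, is the one gene called, at -2.96 and -2.68.

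The interferon ligands were close to absent. Of 21 type I, II and III interferon genes 18 had no count in any embryo, among them *Ifnb1*, the interferon first made after RNA sensing, and both lambda interferon genes. *Ifna13* had 43 counts in all, in 3 of 7 null embryos (up to 1.97 CPM), 1 het and 1 wild-type embryo (1.89 CPM). *Ifng*, the type II interferon, had 135 counts in 5 of 9 wild-type embryos, 86 counts in 2 of 7 het embryos and 0 in the 7 null embryos. Its highest level was 11.5 CPM, in a het embryo. Of the stages it could be tested at E2.5, where null against wild-type gave an adjusted p of 0.256 and null against het one of 0.515 (edgeR). The control embryos alone brought *Ifng* into these tests and fixed the direction. No ligand passed the filter over both stages.

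*Ifnar1* (ENSMUSG00000022967, chr16:91485238-91507441), a subunit of the type I interferon receptor, was the one pathway gene called lower in null embryos over both stages. At E2.5 the null embryos had 0, 0.850, 3.05 and 4.23 CPM, the het embryos 33.2 and 34.4 CPM, and the wild-type embryos from 7.43 to 33.8 CPM with a median of 16.1. At E2.75 the nulls had 4.93, 5.64 and 0.831 CPM, the het embryos 23.9, 9.34, 14.9, 9.58 and 20.6 CPM, and the wild-type embryos 18.6, 21.2 and 6.99 CPM. Each of the 7 null embryos lay below each of the 16 others at both stages. The mean was 2.79 ± 2.24 CPM in null (SD, n = 7), 20.8 ± 10.3 in het (n = 7) and 17.1 ± 9.26 in wild-type embryos (n = 9). The log2 fold change was -2.96 (SE 0.68, adjusted p = 0.0112, edgeR) for null against het and -2.68 (SE 0.66, adjusted p = 0.0181, edgeR) for null against wild-type. Without wild-type replicate 6 the second was -2.67 (adjusted p = 0.0257, edgeR), and at E2.5 alone it was -3.22 (adjusted p = 0.168, edgeR). Within each stage alone it was not called, at -4.17 (adjusted p = 0.388) and -3.23 (0.138) at E2.5 and at -2.13 (0.159) and -2.13 (0.175) at E2.75, against het and wild-type in that order, all by edgeR. The interaction of stage and genotype was 1.08 (SE 1.25, adjusted p = 0.839, edgeR).

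**Figure D3:**
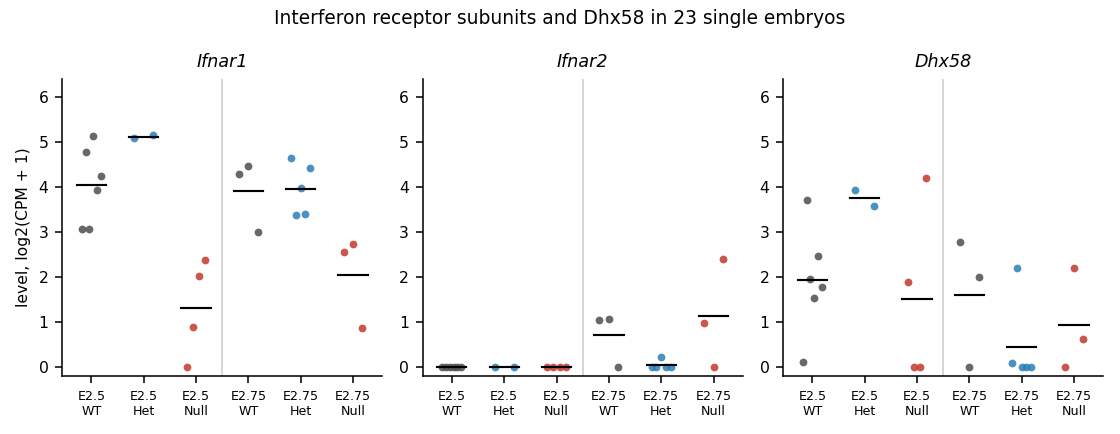
Levels of the type I interferon receptor subunits *Ifnar1* and *Ifnar2* and of the RIG-I relative *Dhx58* in each embryo, as log2(CPM + 1), with a bar at the group mean. The null embryos lie below all others for *Ifnar1*, at 0 to 5.64 CPM. *Ifnar2* and *Dhx58* were added by hand.

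The rest of the receptor pathway was uneven in level and was not called. *Ifnar2*, the partner subunit, had counts in 5 of 23 embryos, 2 of them null (0.986 and 4.29 CPM), and none in the 12 embryos of E2.5. *Jak1*, the kinase bound to IFNAR2, was at 66.9 ± 59.1 CPM in null, 115 ± 33.6 in het and 84.2 ± 42.2 in wild-type embryos, with log2 fold changes of -0.77 and -0.33 against het and wild-type. *Socs3*, a feedback inhibitor of JAK kinases, was at 55.7 ± 43.7, 52.8 ± 26.2 and 50.2 ± 34.7 CPM in the same order. At E2.5 the 4 null embryos (15.0 to 42.4 CPM of *Jak1*) lay below the 6 wild-type embryos (61.9 to 182 CPM), at -1.44 on the log2 scale (adjusted p = 0.114, edgeR), and at -1.51 without wild-type replicate 6. In this list of 16 genes 11 were tested, with a median log2 fold change of 0.05 against het and -0.15 against wild-type.

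Of 44 interferon-stimulated genes other than the members, 35 had a count and 11 were tested. Of these 11, 0 were called higher and 0 lower in null embryos over both stages. Their median log2 fold change was -0.08 against het and -0.17 against wild-type. *Ifit2*, *Ifit3* and *Rsad2*, which are at the front of an interferon response in most cells, had no count in any embryo. The summed level of the list was 155 to 272 CPM in null, 154 to 330 in het and 148 to 389 in wild-type embryos, so the genotypes overlapped. Its most abundant genes were *Ifi35*, at 58.6 ± 42.0 CPM in null and 78.7 ± 38.9 in wild-type, and *Bst2* (tetherin, which holds budding virus at the membrane), at 46.9 ± 30.02 and 52.6 ± 24.9. In null against wild-type at E2.75, 12 genes of the list were tested, 3 with a positive and 9 with a negative log2 fold change. Their median was -0.85, where that of all genes was -0.009. The 1 called was *Psmb9*, a subunit of the immunoproteasome, which rose by a log2 of 3.4 (adjusted p = 0.0909, edgeR). Its level was 4.93 to 23.1 CPM in null and 0.334 to 2.93 in wild-type embryos. Against het, at 5.12 to 21.3 CPM, it was not called. *Psmb9* is named after its values were seen.

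**Figure D4:**
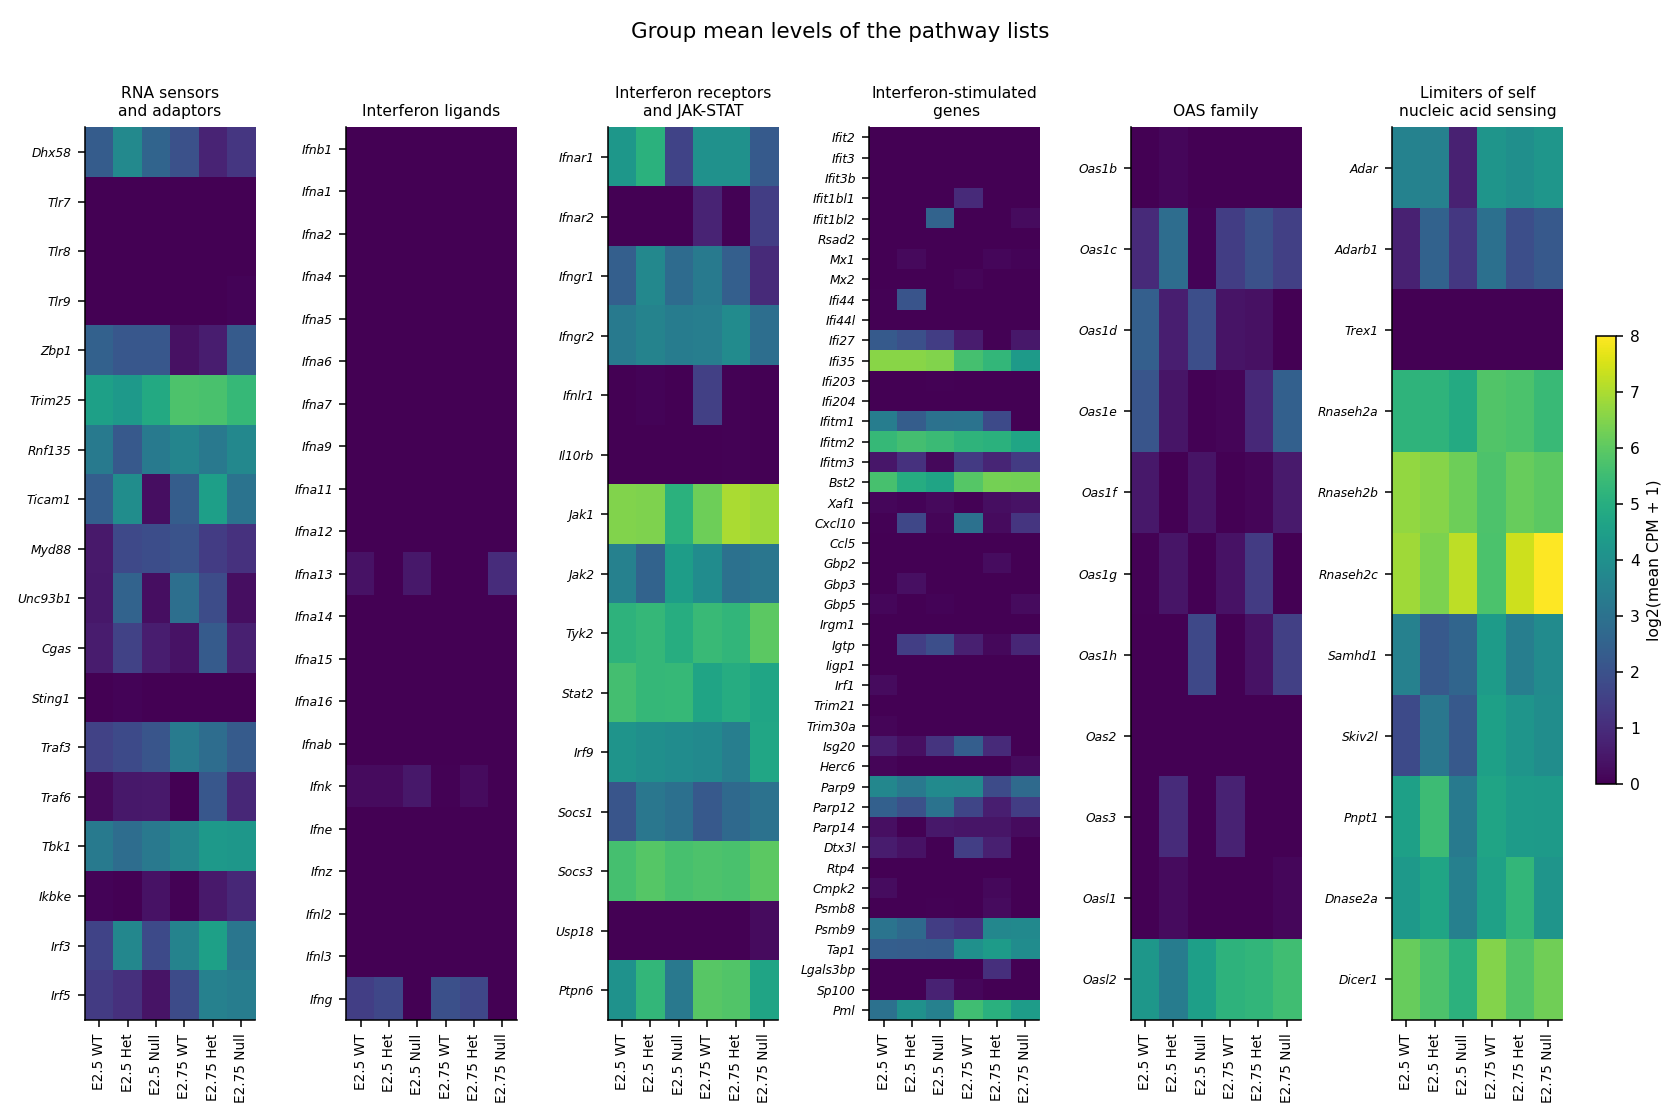
Group mean levels, as log2(mean CPM + 1), of genes of 6 pathway lists in the 6 groups of embryos. The ligands and most interferon-stimulated genes lie at or near 0 in every group, while the receptor kinases, *Ifi35*, *Ifitm2*, *Bst2* and the limiters of sensing other than *Trex1* are expressed in all of them.

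Among the other sensors and adaptors, of 18 genes 13 were tested and 0 were called in either direction, with medians of -0.54 against het and 0.11 against wild-type. *Trim25*, the ubiquitin ligase that helps RIG-I to signal, was at 33.3 ± 20.5 CPM in null, 42.0 ± 31.1 in het and 32.6 ± 18.4 in wild-type embryos. *Tbk1*, the kinase below MAVS, was at 12.5 ± 7.57, 15.2 ± 7.04 and 9.79 ± 7.53 CPM. In the OAS family 4 of 12 genes were tested and 0 called. Against each control 2 had a positive and 2 a negative log2 fold change. *Oasl2* was its most abundant gene (32.2 ± 17 CPM in null, 23.7 ± 14.4 in wild-type). Of the ISG15 conjugation genes 2 of 5 were tested and 0 called, with *Herc3* at 7.05 ± 7.44 CPM in null and 6.02 ± 6.57 in wild-type, and *Ube2l6* at 4.42 ± 6.45 and 5.70 ± 8.29.

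The kinases of eIF2alpha and the partners of PKR, and the enzymes that keep self RNA and DNA from being sensed, were expressed in all genotypes except for *Trex1*, which had no count. Of the first list 8 of 8 genes were tested and 0 called, with medians of -0.45 against het and -0.59 against wild-type. Against het 2 had a positive and 6 a negative log2 fold change, and against wild-type 1 and 7. *Eif2s1*, which encodes eIF2alpha, was at 510 ± 176 CPM in null, 362 ± 116 in het and 459 ± 132 in wild-type embryos, and *Dnajc3*, an inhibitor of PKR, at 83.8 ± 74.6, 63.2 ± 23.6 and 106 ± 52.2 CPM. Of 11 limiters 10 were tested and 0 called over both stages, with medians of -0.48 against het and -0.44 against wild-type. *Rnaseh2b* and *Rnaseh2c*, subunits of the enzyme that removes RNA from RNA and DNA hybrids, were its most abundant genes. *Rnaseh2c* rose in null against wild-type at E2.75, by a log2 of 2.29 (SE 0.52, adjusted p = 0.0379, edgeR), with null embryos at 115 to 449 CPM and wild-type at 43.6 to 66.0. Against het embryos of that stage, at 103 to 347 CPM, its log2 fold change was 0.62 (adjusted p = 0.519, edgeR).

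Between the stages in wild-type embryos 0 of the 6 members tested were called by edgeR, beside 7.38% of all genes. *Irf7* had the largest value, at 5.89 (SE 2.06, adjusted p = 0.106, edgeR), with 0 to 0.334 CPM at E2.5 and 0 to 11.5 CPM at E2.75. Without E2.5 wild-type replicate 4 it was 8.04 with an adjusted p of 0.0791 (edgeR) and was called, beside 7.77% of all genes. That embryo held all the *Irf7* counts of E2.5 wild-type, so without it the direction was fixed and is no evidence. Of the 119 *Irf7* counts in E2.75 wild-type embryos, 113 came from replicate 3. *Mavs* was at 1.67 (adjusted p = 0.300, edgeR), from 7.80 ± 6.10 CPM (n = 6) to 24.8 ± 6.04 (n = 3). Of 73 pathway genes tested 5 were called higher and 0 lower (6.85%), and the 5 are named after their values were seen. Without wild-type replicate 6 of E2.5, 3 of 71 were called higher, and *Ifnar2* and *Skiv2l* were no longer called. The 5 were *Ifnar2*, *Cxcl10*, *Pml*, *Tarbp2* and *Skiv2l*, with log2 fold changes of 5.48, 7.06, 2.74, 1.47 and 3.16. *Ifnar2* was at 0 in all 6 E2.5 wild-type embryos, so it could only rise. Its value rests on 4, 10 and 0 counts in the E2.75 wild-type embryos. *Skiv2l*, the helicase of the cytoplasmic exosome, went from 2.47 ± 2.51 CPM to 22.2 ± 4.44, and *Tarbp2*, a partner of Dicer and inhibitor of PKR, from 19.9 ± 8.02 to 55.3 ± 6.27. The null embryos of E2.75 had 14 ± 4.55 CPM of *Skiv2l* and 42.2 ± 14.8 of *Tarbp2*.

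Markers of other cells that could come with a collected embryo were counted in the same libraries. The culture methods of the study remove cumulus cells with hyaluronidase, and whether the sequenced embryos were so treated is not given in the sources used here. Of 10 embryo markers all had counts, with *Dppa3* at 3598 to 17740 CPM. *Krt18*, a keratin of the outer cells of the embryo, fell in null against het by 2.95 on the log2 scale (adjusted p = 0.0352, edgeR), with means of 13.4 ± 14.1 and 103 ± 63.5 CPM. Against wild-type, at 41.6 ± 34.8 CPM, it was at -1.65 and not called (adjusted p = 0.278, edgeR). Of the 10 embryo markers, 3 had a positive and 7 a negative log2 fold change in null against het over both stages. In null against wild-type at E2.75, 2 other markers of this list were called higher and 1 lower, and *Krt18* was not called. Of 10 leukocyte and blood markers 8 had a count in some embryo, and their summed level was 0.235 to 23.4 CPM in null, 0.71 to 13 in het and 0 to 14.1 in wild-type embryos, with *Lyz2* and *Hbb-bs* at 0. Of 10 cumulus and granulosa markers 8 had a count, at a summed 21.9 to 69.3, 8.44 to 39.7 and 13.2 to 37.9 CPM in the same order, most of it from *Amhr2*, with *Ptx3* and *Inhba* at 0. Of 8 markers of oviduct and uterus epithelium 6 had a count, at 6.11 to 99.5, 43.5 to 181 and 20.1 to 76.2 CPM, with *Foxj1* and *Ltf* at 0 and most of the sum from *Epcam*, which embryos express too. The part of these cells in the levels of the 9 genes was not tested.

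POU6F1 peaks were examined at the start sites of the 9 genes, since *Pou6f1* is the transcript the study follows in null embryos. The deposited lists compare each of 2 replicates with each of 2 controls, which the labels number and do not name. Counting peaks that overlap by at least 1 bp in both replicates and lie within 1 kb of an annotated start, 1 of the 9 genes, *Mavs*, had a peak with the first control, and 0 with the second. The same held for 22.6% and 7.1% of all 55227 genes with an annotated start, and for 65.4% and 23.9% of the genes tested in the embryos, of which *Mavs* and *Ddx58* are the members. At *Mavs* the peak of replicate 1 (chr2:131233813-131234514) was enriched 11.6-fold over the first control and that of replicate 2 (chr2:131233881-131234126) 7.41-fold. *Ddx58*, *Ifih1*, *Eif2ak2* and *Tlr3* had peaks in replicate 1 only, at 5.08-fold to 7.77-fold over the first control within 1 kb of the start of the gene, and *Irf7*, *Isg15*, *Ifit1* and *Oas1a* had none within 1 kb. Of the 16 receptor and JAK-STAT genes, 10 had a peak by the same count with the first control and 3 with the second. Of the 8 eIF2alpha kinases and PKR partners these were 8 and 5. At *Ifnar1*, the one gene of these 2 lists called over both stages, both replicates had a peak with both controls. Its peaks were at 27.0-fold and 26.8-fold in replicate 1 and 8.88-fold and 9.02-fold in replicate 2. The 250 bases before the RefSeq start of both genes are shown because these peaks lie over them, with the bases under the peaks of both replicates in capitals, 182 of 250 at *Mavs* (chr2:131233813-131234062, plus strand, first control) and 250 of 250 at *Ifnar1* (chr16:91484965-91485214, plus strand, second control). The peaks were called in stem cells, and no binding was measured in embryos.
Mavs: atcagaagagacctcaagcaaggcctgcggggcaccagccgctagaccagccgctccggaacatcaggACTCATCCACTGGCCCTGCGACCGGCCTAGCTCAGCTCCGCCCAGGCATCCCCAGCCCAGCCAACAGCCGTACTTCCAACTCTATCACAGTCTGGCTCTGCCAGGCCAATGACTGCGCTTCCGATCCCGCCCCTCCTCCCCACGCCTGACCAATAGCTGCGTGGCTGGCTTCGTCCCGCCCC
Ifnar1: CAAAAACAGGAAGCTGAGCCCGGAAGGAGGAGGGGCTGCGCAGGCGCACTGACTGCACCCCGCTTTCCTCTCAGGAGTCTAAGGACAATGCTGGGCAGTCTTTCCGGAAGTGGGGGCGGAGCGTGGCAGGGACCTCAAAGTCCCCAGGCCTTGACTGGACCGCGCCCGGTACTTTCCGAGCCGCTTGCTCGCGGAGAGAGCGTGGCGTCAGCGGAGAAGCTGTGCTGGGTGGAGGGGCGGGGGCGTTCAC

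**Figure D5:**
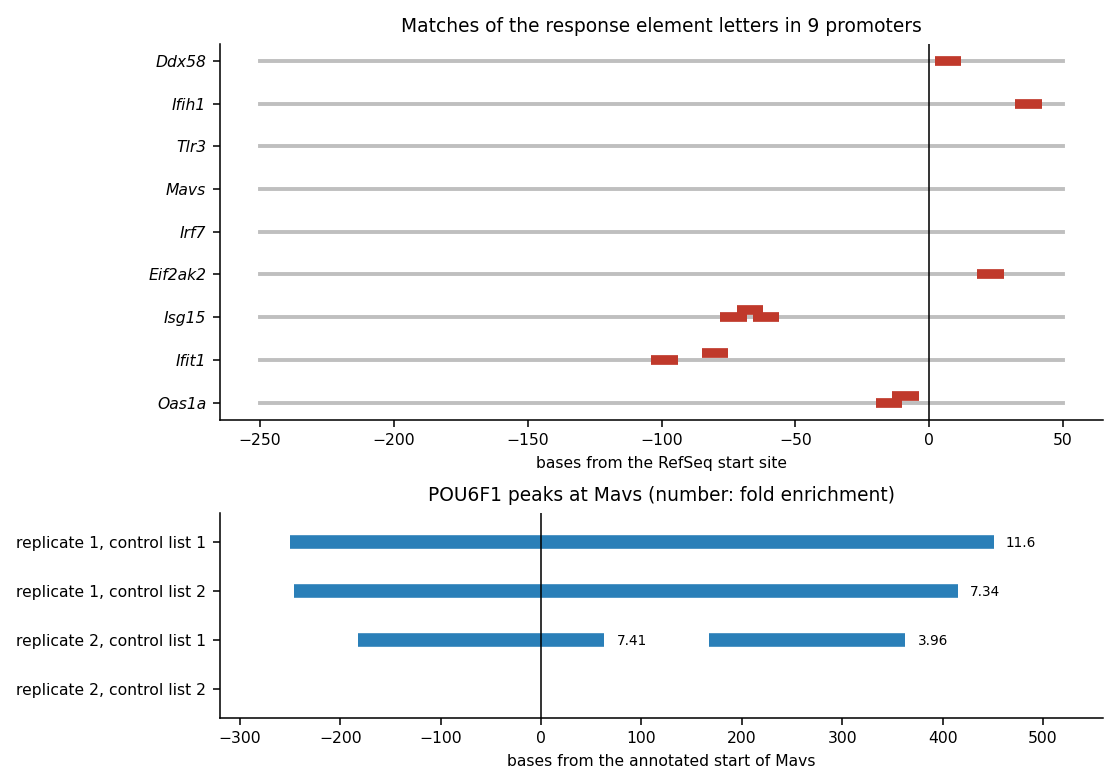
Above, the matches of GAAANNGAAA (red) in the promoter windows of the 9 genes, in bases from the RefSeq start site. Below, the POU6F1 peaks at *Mavs* in the 4 lists, in bases from its annotated start, with the fold enrichment beside each peak (11.6, 7.34, 7.41 and 3.96, and none in replicate 2 with the second control).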

How the data were processed

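Single embryos were sequenced as poly(A) RNA by template switching with 18 cycles of amplification and ERCC spike-ins. The authors trimmed reads (Cutadapt 3.4), aligned them to GRCm38 (STAR 2.7.8a) and deposited whole-number counts per gene from HTSeq 0.11.4, blind to strand. The annotation release is not given in the sources used here. For ChIP-seq of stem cells, the authors called peaks with MACS2 2.2.7.1 after Bowtie2 2.4.4. The deposited lists hold a score, the fold enrichment as a ratio, and -log10 p and q values per peak, with no depth.

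Groups follow the labels. Counts were tested with edgeR 4.0.16 (quasi-likelihood, TMM, filterByExpr, Benjamini-Hochberg over all genes tested; R 4.3.3) in 1 fit of the 3 genotypes with both stages merged, in a fit per stage, and in a fit of 6 groups for the interaction and the wild-type stages. The thresholds for a call (adjusted p below 0.1, log2 change larger than 1 in size) are those of the study, which used DESeq2. DESeq2 1.42.0, other scalings, no filter, a replicate block and leaving out embryos were the alternatives. Levels are CPM after TMM. Gene positions and starts are from GENCODE vM21, promoters from RefSeq, both on GRCm38, and peaks were compared with bedtools 2.31.1. Library sizes were sums over genes, without spike-ins or summary lines. The 38 pairs of embryos within a group differed by more than sampling noise (chi-square per degree of freedom from 23.4 to 184), so each embryo is 1 replicate. The labels do not tie embryos to litters, and p-values measure the spread between these embryos. The fits were also run on simulated data. How well the fits find a change in genes with counts as low as those of most members is not reported here. Fold bounds without single control embryos, and pathway counts without wild-type replicate 6 of E2.5, were added after seeing the data.

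The members and the gene lists were chosen with earlier results of these data known. Genes named outside the 9 were, in each list, those called in null against het or null against wild-type (at most 5) and the 2 of highest mean CPM, and for *Mavs* and *Ddx58* the 3 genes of highest Spearman correlation. A few genes of these lists are counted in their totals and not reported by name here.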

Additional observations from a re-analysis of the deposited data

Results flagged for a closer look

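In groups of 4 to 10 embryos, 19 sets of levels of the 9 genes and *Ifnar1* were examined by Dixon's ratio. For normally spread values chance flags about 1 in 20. Here 11 were flagged for a single high embryo. Levels with many embryos at 0 are not so spread, so the 11 cannot be set against that rate. In 7 of the 11 every other embryo of the group was at 0, so these mark a transcript caught in 1 embryo of a group. For *Ddx58* these were E2.5 wild-type replicate 6 at 4.95 CPM, E2.5 null replicate 2 at 10.4 CPM and E2.75 het replicate 3 at 3.57 CPM. For *Ifih1* they were E2.5 wild-type replicate 3 at 1.44 CPM and E2.75 het replicate 4 at 6.03 CPM. *Eif2ak2* was flagged in E2.5 wild-type replicate 2 at 4.65 CPM, E2.5 null replicate 4 at 3.76 CPM and E2.75 het replicate 4 at 0.355 CPM. *Irf7* was flagged in E2.5 wild-type replicate 4 at 0.334 CPM, *Isg15* in E2.5 wild-type replicate 2 at 3.05 CPM and *Oas1a* in E2.5 wild-type replicate 4 at 6.45 CPM. No flagged embryo stood out by being low.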

How the results depend on the processing

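Of 375 alternative values 358 kept their direction and their side of the threshold or stayed near the reported value. The number of members called was 0 in each comparison as reported. It was 2 without the filter on low counts in null against het and in null against wild-type, and 1 without the filter in both E2.75 null comparisons and in E2.75 against E2.5 wild-type. It was 1 with ERCC normalization in null against het at E2.75 and in E2.75 against E2.5 wild-type, and 1 with DESeq2 in null against wild-type at E2.75. Leaving out 1 embryo at a time gave 0 to 1 in null against het, where *Oas1a* entered the test without either E2.5 het embryo, and 0 to 1 in E2.75 against E2.5 wild-type. ERCC normalization moved the median of all genes by -1.10 in null against het and -0.35 in null against wild-type (log2). In these 2 comparisons over both stages the directions of *Mavs*, *Ddx58* and *Ifnar1* were the same under it. Against wild-type within a stage, the sign changed for *Ddx58* at E2.75 (0.49 to -0.10) and for *Eif2ak2* at E2.5 (0.22 to -0.34). *Ifnar1* stayed called in all 7 alternatives and all 30 fits without 1 embryo, with adjusted p-values up to 0.0629 (edgeR or DESeq2). The log2 fold change of *Ddx58* in null against het ranged from 0.87 with ERCC normalization to 4.18 with the replicate block, and from 1.13 to 3.55 with 1 embryo left out. *Oas1a* has no value in null against wild-type at E2.75 without wild-type replicate 3, which held all its counts. With the first control, a stricter overlap of the peaks of both replicates left 0 members with a peak, against 1.

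Embryos with the same number in different groups of a stage did not deviate together (17 pairs, r from -0.106 to 0.086), so the numbers pair nothing. With the replicate block 0 members were called in each of 8 comparisons, and all genes called went from 769 to 332 in null against het and from 704 to 560 in null against wild-type. That fit could not be made for the stages of wild-type embryos. With 2 het embryos at E2.5 and shallow null libraries, low transcripts limit what could be tested.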
